A study of Mus musculus with 6 samples.

Results

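The genes described here mark the first blood progenitors and macrophages of the mouse embryo: the transcription factors Runx1, Gata2, Lyl1, Ikzf1 and Spi1, the receptor Kit and its ligand Kitl, and the surface receptors Ptprc, Csf1r and Cx3cr1. Every probe set that the array annotation assigned to a single one of these 10 symbols was taken, which gave 25 of the 45101 probe sets on the Affymetrix mouse array. No probe set listed one of these genes together with another. Total RNA came from whole E9.5 embryos, 1 embryo per array, with 3 RFC1+/+ and 3 RFC1-/- embryos that formed littermate pairs from 3 litters. All embryos came from the inbred SWV background, and their dams had received 25 mg/kg folic acid subcutaneously each day. The RFC1+/+ embryos are labelled normal, whereas the RFC1-/- embryos are labelled with craniorachischisis and without chorioallantoic fusion. Per the methods, the extraembryonic membranes went to genotyping and RNA was prepared from embryonic tissue, and no blood cells were sorted. Whether yolk sac tissue remained with any embryo was not tested.

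In the mouse embryo, blood first forms in the yolk sac, where mesoderm gives rise to primitive red cells, to megakaryocytes and to macrophages, and a later wave of progenitors buds from endothelium under the control of Runx1 and Gata2. Kit is the receptor tyrosine kinase of these progenitors and Kitl, or stem cell factor, is its ligand. Both genes also act outside blood, in germ cells, melanoblasts and their surroundings. Spi1, which encodes PU.1, drives the myeloid fate, and Csf1r, Ptprc (CD45) and Cx3cr1 are carried by the macrophages that follow.

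Expression values were on the log2 scale after robust multiarray averaging (RMA), and the median of the arrays lay between 5.43 and 5.49. The table held no detection calls, so that no value can be said to lie above or at background. As a reference, 9 genes of lymphocytes, which embryos of this age do not yet form, measured between 3.26 and 6.12 over the 6 arrays. The targeted gene, Slc19a1, was higher in RFC1-/- embryos on a pair of its probe sets, by 0.93 and 1.19, and differed by 0.02 on the third. Where its probes lie relative to the disrupted part was not analysed here, so these values do not check the labels. Each difference is the RFC1-/- value less that of its RFC1+/+ littermate, and was tested in limma with litter blocked and p-values adjusted over all probe sets by Benjamini-Hochberg, at a threshold of 0.05. In whole embryos, fewer cells of a type and less RNA per cell cannot be told apart. The paper describes RFC1-/- embryos from dams on this folic acid dose as delayed in development. The part of developmental stage in the differences was not tested.

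Of the 25 probe sets, 1 was higher in RFC1-/- embryos, the brightest of Kit, and 1 was lower, the second of Ikzf1, while 23 did not pass. Over the whole array, 2.75% of probe sets passed, 1.87% higher and 0.882% lower. The mean difference was smaller than 0.2 on the log2 scale for 19 of the 25, beside 75.2% of all probe sets. The groups did not overlap for 5 of the 25 probe sets, close to the 21.3% of all probe sets for which they did not, and the difference had the same sign in all 3 litters for 7 of the 25, beside 35.5% of all probe sets.

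**Figure D1:**
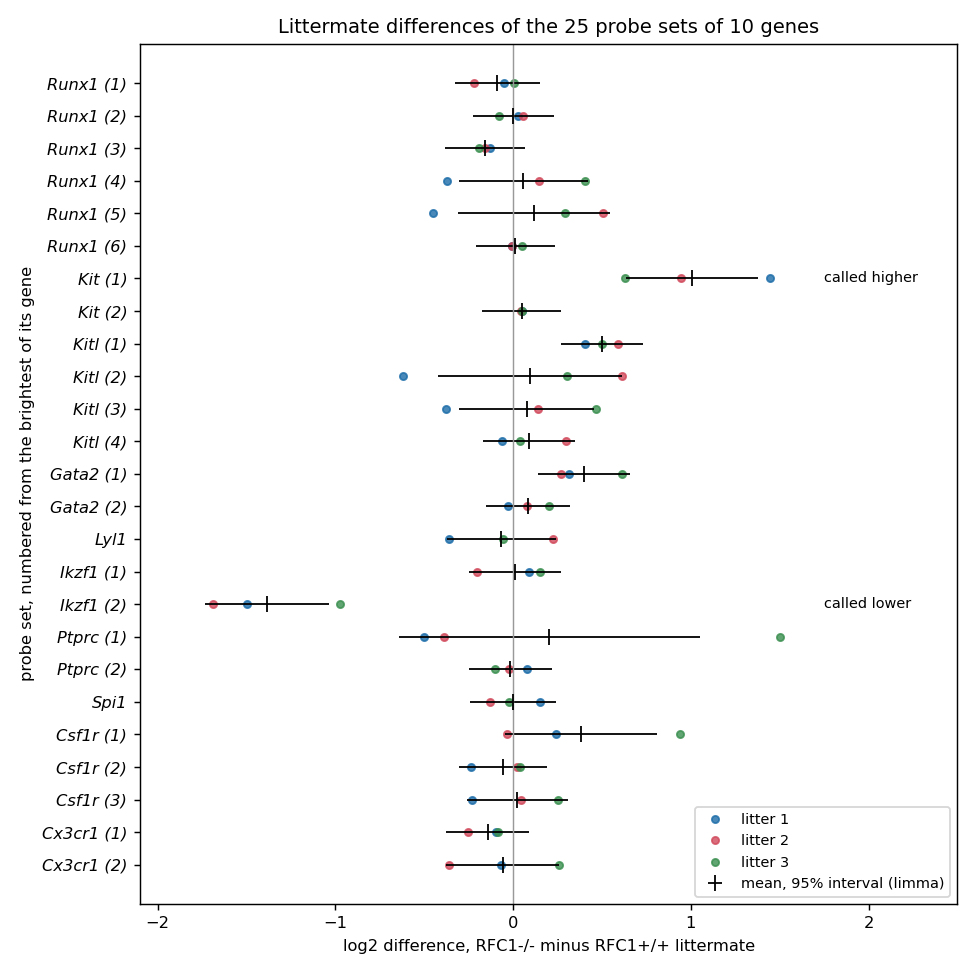
Log2 difference between the RFC1-/- embryo and its RFC1+/+ littermate (x axis) for the 25 probe sets of the 10 genes, numbered from the brightest of each gene (y axis). Colours tell the 3 litters apart, and the mean is drawn in black with its 95% interval from limma, which lies wholly above 0 for the brightest probe sets of Kit, Kitl and Gata2 and wholly below 0 for the second probe set of Ikzf1.

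Kit was the member with the largest rise. On its brightest probe set, Kit measured, from litter 1 to litter 3, 7.67, 7.91 and 8.36 in RFC1+/+ and 9.12, 8.85 and 8.99 in RFC1-/- embryos. All RFC1-/- embryos were above all RFC1+/+ embryos, and the RFC1+/+ embryos were more spread (SD 0.35, n = 3) than the RFC1-/- embryos (SD 0.13, n = 3). The signal was 2.01-fold higher in RFC1-/- embryos (limma difference 1.01 ± 0.16 (SE) in log2 units, adjusted p = 0.0259). The litter differences were 1.45, 0.94 and 0.63, so litter 1 contributed most. The call was lost without litter 1 (difference 0.79, limma adjusted p = 0.126) and without litter 2 (limma adjusted p = 0.0684). It was also lost after the variation filter of the methods (limma adjusted p = 0.0561), with the difference unchanged. In that fit limma gave the kept probe sets of Kit, Ikzf1 and Ptprc the same SE, 0.389. That loss therefore does not reflect the spread of Kit itself.

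The other Kit probe set stayed between 4.72 and 4.95 on all 6 arrays, and its difference was 0.05 in each litter. These values lie within the range of the lymphocyte genes. Set against the brightest probe set, its difference was smaller by 0.96 on the log2 scale, and this disagreement did not pass when all 16764 such pairs of probe sets on the array were tested (limma adjusted p = 0.0614, but 0.0308 without litter 2 and 0.0498 without litter 3). Of those pairs, 0.847% passed, 0.274% with the dimmer probe set relatively higher in RFC1-/- embryos and 0.573% with it lower.

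Kitl, the ligand of Kit, had 4 probe sets, with means over the 6 arrays of 10.1 on the brightest and 7.77 on the next. On the brightest it measured 9.82, 9.63 and 9.98 in RFC1+/+ embryos and 10.2, 10.2 and 10.5 in RFC1-/- embryos of litters 1, 2 and 3. The groups did not overlap, and the litter differences of 0.40, 0.59 and 0.50 were close to each other. The RFC1-/- signal was 1.41-fold that of RFC1+/+ embryos (0.50 in log2 units, 95% interval 0.27 to 0.73), with an adjusted p of 0.0510 from limma over all probe sets, just outside the threshold. In a fit of 18194 genes, each on its brightest probe set, the adjusted p of Kitl was 0.0390 from limma, and between 0.0502 and 0.163 when any 1 litter was left out. Kit and Kitl were the 2 of the 10 genes that passed in that fit, both higher, beside 5.32% of all genes, 3.67% higher and 1.65% lower.

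The other Kitl probe sets did not show this difference. The second brightest measured 8.27, 7.28 and 7.61 in RFC1+/+ embryos and 7.64, 7.89 and 7.91 in RFC1-/- embryos. The groups overlapped, with the highest value of all in the RFC1+/+ embryo of litter 1. The group means of the 3 Kitl probe sets other than the brightest differed by 0.10, 0.08 and 0.09, with adjusted p between 0.816 and 0.916 from limma. When all probe sets of the gene were averaged, the difference of Kitl was 0.19 and did not pass (limma adjusted p = 0.528).

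**Figure D2:**
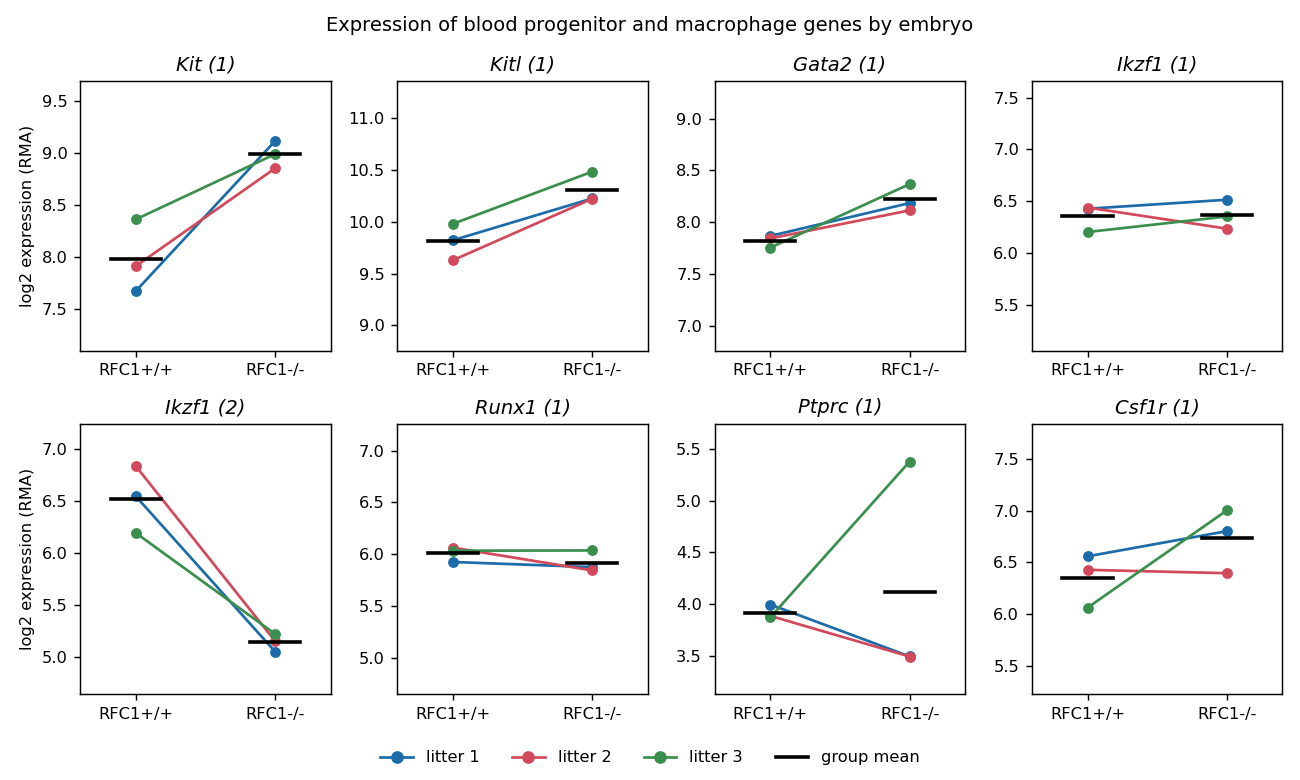
Log2 expression after RMA (y axis, each panel spanning the same number of log2 units) in RFC1+/+ and RFC1-/- embryos (x axis) for 8 probe sets, numbered from the brightest of each gene. Lines join littermates and black bars are group means. Kit and the second Ikzf1 probe set separate the groups in opposite directions, and Ptprc is high in a single RFC1-/- embryo, that of litter 3, at 5.38.

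Among the transcription factors, Gata2, which is needed to expand blood progenitors and is also made in endothelium, was higher in each RFC1-/- embryo on its brightest probe set without passing the test. It measured 7.87, 7.84 and 7.76 in RFC1+/+ embryos and 8.19, 8.12 and 8.37 in RFC1-/- embryos of litters 1, 2 and 3. The groups did not overlap, and the signal was 1.32-fold higher (log2 difference 0.40, 95% interval 0.14 to 0.66, limma adjusted p = 0.130). Without the litter as a block, Gata2 passed in the fit of genes (limma adjusted p = 0.0462). Its dimmer probe set lay between 4.96 and 5.20 and differed by 0.08 (limma adjusted p = 0.812).

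Ikzf1 encodes Ikaros, a zinc finger factor first known from lymphocytes that is also made in early blood progenitors and erythroid cells. The annotation ties its brighter probe set to a RefSeq transcript and the other to an expressed sequence tag. RefSeq (GRCm38.p6) gives Ikzf1 starts at a pair of places on chromosome 11, and the sequence around both is shown because the probe sets of this gene disagree. Each run covers 300 bases around a start, mostly before it, and 4 short motifs were searched on both strands, AGATAA for GATA factors, TGTGGT for Runx factors, GAGGAA for PU.1 and CAGCTG as an E-box bound by bHLH factors. Matches are in capitals, none overlap, and no match is present in either Ikzf1 window. Where the probes of these probe sets lie was not analysed here.
Ikzf1, first start, chr11:11685675-11685974, plus strand: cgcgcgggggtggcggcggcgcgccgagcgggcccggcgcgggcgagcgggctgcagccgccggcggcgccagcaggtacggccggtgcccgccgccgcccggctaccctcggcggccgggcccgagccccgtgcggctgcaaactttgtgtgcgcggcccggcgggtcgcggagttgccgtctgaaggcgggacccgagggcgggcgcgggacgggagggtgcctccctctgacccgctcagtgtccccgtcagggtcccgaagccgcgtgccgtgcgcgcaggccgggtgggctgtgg
Ikzf1, second start, chr11:11689927-11690226, plus strand: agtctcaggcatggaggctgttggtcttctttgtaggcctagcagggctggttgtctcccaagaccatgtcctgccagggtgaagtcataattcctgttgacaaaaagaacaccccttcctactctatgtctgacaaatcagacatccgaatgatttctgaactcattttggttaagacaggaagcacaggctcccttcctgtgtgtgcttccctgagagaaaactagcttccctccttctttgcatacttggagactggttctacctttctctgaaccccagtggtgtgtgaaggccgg

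The Kit promoter and the second Gata2 start are shown for the receptor and the factor whose brightest probe sets were higher in every RFC1-/- embryo. Kit holds 1 match of GAGGAA and the second Gata2 window 1 match of CAGCTG, while the first Gata2 window, chr6:88193641-88193940, holds 0 matches and is not printed. The brightest probe set of Kitl was also higher in every RFC1-/- embryo. Its window, chr10:100015571-100015870, holds 0 matches and is not printed either. Over the 32851 promoter windows of the RefSeq table, AGATAA was found in 11.2%, TGTGGT in 16.8%, GAGGAA in 28.3% and CAGCTG in 16.3%. A match is a description of the letters and not evidence of binding. The table had entries for 8 of the 10 genes, and those without are Spi1 and Csf1r.
Kit, chr5:75574737-75575036, plus strand: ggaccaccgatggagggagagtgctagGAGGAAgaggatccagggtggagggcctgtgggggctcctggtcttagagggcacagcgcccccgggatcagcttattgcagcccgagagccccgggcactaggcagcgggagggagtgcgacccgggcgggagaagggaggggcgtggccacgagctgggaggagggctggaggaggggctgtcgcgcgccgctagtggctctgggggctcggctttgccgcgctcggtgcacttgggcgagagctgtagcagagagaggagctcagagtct
Gata2, second start, chr6:88198414-88198713, plus strand: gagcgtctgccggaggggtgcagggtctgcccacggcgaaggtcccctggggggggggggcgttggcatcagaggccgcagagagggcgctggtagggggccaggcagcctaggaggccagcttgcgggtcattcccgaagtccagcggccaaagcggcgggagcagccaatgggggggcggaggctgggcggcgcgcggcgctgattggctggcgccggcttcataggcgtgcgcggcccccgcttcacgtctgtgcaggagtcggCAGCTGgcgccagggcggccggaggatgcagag

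The fall of Ikzf1 appeared on the dimmer of its probe sets. There it measured 6.54, 6.83 and 6.19 in RFC1+/+ embryos, and 5.05, 5.15 and 5.22 in the RFC1-/- embryos of the same litters. The groups were well apart and the RFC1-/- embryos lay close together (SD 0.09, against 0.32 in RFC1+/+ embryos, n = 3 each). The signal was 2.61-fold lower in RFC1-/- embryos (limma difference -1.39 ± 0.15 (SE) in log2 units, adjusted p = 0.00859). The RFC1-/- values, but not those of RFC1+/+ embryos, lie within the range of the lymphocyte genes, so the fold is that of the measured signals. The call was lost without litter 1 (difference -1.33, limma adjusted p = 0.0674).

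The brighter Ikzf1 probe set did not show this. It measured 6.43, 6.44 and 6.20 in RFC1+/+ embryos and 6.52, 6.24 and 6.35 in RFC1-/- embryos. The groups overlapped and the mean difference was 0.01 (95% interval -0.25 to 0.27, limma adjusted p = 0.984). These values lie just above the range of the lymphocyte genes, so the interval describes the measured signal. The disagreement itself was tested as the difference between the probe sets within each array. In litters 1, 2 and 3 the dimmer probe set changed by -1.58, -1.48 and -1.12 relative to the brighter one, a mean of -1.40 that passed over all 16764 pairs (SE 0.14, limma adjusted p = 0.0118). It passed without any 1 litter, with adjusted p between 0.00201 and 0.0364 from limma, and among pairs with means of at least 5 it was 1 of 8 that passed (limma adjusted p = 0.0378). A direction for Ikzf1 as a gene therefore depends on the probe set: averaged over both, the difference of Ikzf1 was -0.69 on the log2 scale (limma adjusted p = 0.0298).

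Genes most like each Ikzf1 probe set over the 6 arrays were looked up among 10499 genes with a mean of at least 6. The falling probe set was followed most closely by Exd2, Marcks, Zadh2, Fam133b and Wtap, with Pearson correlations between 0.988 and 0.998. Their own differences were between -0.24 and -0.47, and none of these genes passed in the fit of genes. The flat probe set was most like D030056L22Rik, Pln, 4930402H24Rik, Cdk8 and A230070E04Rik (correlations 0.949 to 0.988). No gene is shared by these short lists, and with 6 arrays that share litters and genotypes such correlations are a description only.

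Runx1, the factor required for blood cells to emerge from endothelium, had the most probe sets, and none of the 6 passed. Its brightest probe set measured 5.93, 6.06 and 6.03 in RFC1+/+ embryos and 5.88, 5.84 and 6.04 in RFC1-/- embryos. The groups overlapped, with a difference of -0.09 (95% interval -0.33 to 0.15, limma adjusted p = 0.794). Over the 6 probe sets the mean differences ran from -0.16 to 0.12. The third brightest was lower in each RFC1-/- embryo, at 4.42, 4.41 and 4.36 against 4.55, 4.56 and 4.55, a difference of -0.16 that did not pass (limma adjusted p = 0.527). All values of the 6 probe sets, from 3.62 to 6.06, lie within the range of the lymphocyte genes. The intervals therefore describe the measured signals.

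Lyl1, a bHLH factor of progenitors and endothelium, had a single probe set. It measured 6.89, 6.70 and 6.63 in RFC1+/+ embryos and 6.53, 6.92 and 6.57 in RFC1-/- embryos. The embryos of each genotype were mixed, and the difference was -0.07 (95% interval -0.37 to 0.24, limma adjusted p = 0.900). Spi1 measured 6.09, 6.31 and 6.20 in RFC1+/+ embryos and 6.24, 6.18 and 6.17 in RFC1-/- embryos. The values interleaved, and the 95% interval of the difference ran from -0.25 to 0.24. The values of Spi1 lie at the top of the range of the lymphocyte genes or just above it. The interval therefore bounds the measured signal and not a change of the gene.

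The surface receptors of macrophages did not pass on any of their 7 probe sets. The RFC1-/- embryo of litter 3 stood apart from the other embryos only on the brighter probe set of Ptprc. Ptprc measured 4.0, 3.89 and 3.88 in RFC1+/+ embryos on its brighter probe set, and 3.50, 3.50 and 5.38 in RFC1-/- embryos of litters 1, 2 and 3. Ptprc was thus lower than in the littermate in a pair of litters, with differences of -0.50 and -0.39, and higher in litter 3, and the mean difference of 0.20 had a 95% interval from -0.64 to 1.05. The other Ptprc probe set stayed between 3.51 and 3.72 on all arrays, the RFC1-/- embryo of litter 3 included, at 3.51.

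Csf1r, the receptor for the growth factor of macrophages, measured 6.56, 6.43 and 6.06 on its brightest probe set in RFC1+/+ embryos, and 6.80, 6.40 and 7.0 in RFC1-/- embryos. The largest litter difference, 0.94, was again in litter 3, where the RFC1+/+ value was the lowest of all arrays. The mean of 0.38 did not pass (95% interval -0.04 to 0.81, limma adjusted p = 0.393). The other Csf1r probe sets differed by -0.06 and 0.02 and had litter 3 differences of 0.04 and 0.25. Cx3cr1, the fractalkine receptor of macrophages and microglia, lay between 3.96 and 4.38 on both of its probe sets in all embryos. Its groups overlapped on both, with differences of -0.14 and -0.06 (limma adjusted p = 0.596 and 0.916).

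A wider list of 30 measured macrophage and myeloid genes gave few changes. In the fit of genes, 2 rose, 1 fell and 27 did not pass, and the median difference was -0.01. Over all 18194 genes, 5.32% passed and the median was also -0.01. Fcgr3, an Fc receptor, rose 2.00-fold (limma difference 1.00 ± 0.15 (SE) in log2 units, adjusted p = 0.0155, 0.0706 without the litter as a block). Mrc1, the mannose receptor of macrophages and some endothelium, rose 1.69-fold (limma adjusted p = 0.0292, 0.0855 without litter 2). Coro1a, an actin regulator of white blood cells, fell and was 1.73-fold lower (limma adjusted p = 0.0282, 0.129 without litter 1 and 0.0593 without litter 2), while its other probe sets differed by -0.64 and -0.06 and did not pass. All 6 values of Mrc1 and the RFC1-/- values of Coro1a lie within the range of the lymphocyte genes. So do the RFC1+/+ values of Coro1a in litters 2 and 3, 5.99 and 5.93. The RFC1+/+ values of Fcgr3 in litters 1 and 2, 5.09 and 5.47, lie within it as well.

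The defining markers of macrophages were dim and did not pass. Group means of Adgre1 (F4/80) were 5.36 in RFC1+/+ and 5.46 in RFC1-/- embryos, those of Cd68 4.50 and 4.49, and those of Itgam 3.55 and 3.69. Fcgr1 and Aif1 differed by -0.08 and 0.00, and the signalling adaptors Tyrobp and Fcer1g by -0.15 and -0.05. Lyz2, lysozyme of macrophages, differed by 0.12. The means of Adgre1, Cd68 and Itgam lie within the range of the lymphocyte genes given above, and no value on the arrays is 0.

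By litter, the macrophage and myeloid genes did not move alike. In the RFC1-/- embryos of litters 1 and 2, 10 of the 30 genes were higher than in the littermate in each case, and the medians were -0.09 and -0.12. In litter 3, 24 of the 30 were higher and the median was 0.20. Over all genes the share that was higher was 49.2%, 46.3% and 49.0% in litters 1, 2 and 3. The largest litter 3 differences were those of Maf, a transcription factor of macrophages and other tissues, at 2.22 and of Lyz1 at 1.54. Their values in the RFC1-/- embryo of litter 3 were 9.58 and 6.47, against at most 8.59 and 5.21 on the other 5 arrays. The summed signal of the list was 1992 in that embryo and between 1152 and 1348 on the other arrays. Most of that gap was Maf: without it the sum was 1226 in that embryo and between 959 and 1005 on the other arrays. This pattern rests on 1 embryo, and the difference between litters was not tested.

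**Figure D3:**
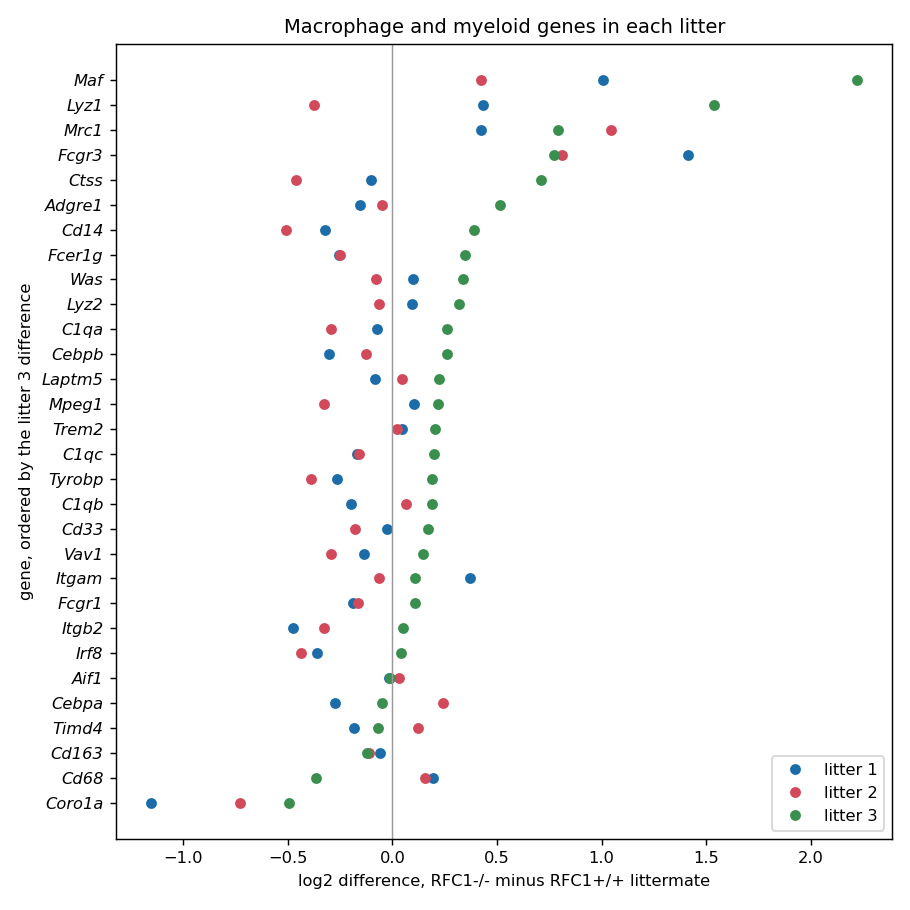
Log2 difference between the RFC1-/- embryo and its RFC1+/+ littermate (x axis) for the 30 measured macrophage and myeloid genes, ordered by litter 3 (y axis), with 1 coloured point per litter. In litter 3, 24 of the points lie above 0, against 10 in each of the other litters.

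Markers of granulocytes and mast cells, of which none of 11 passed, included 2 genes that stood apart in the same embryo. S100a8, a calcium binding protein of neutrophils and some macrophages that was picked, like Ctsg, after its values were seen, measured 6.00 in the RFC1-/- embryo of litter 3 and between 3.52 and 3.85 in the other 5 embryos. Ctsg, cathepsin G of granulocytes, measured 5.38 there and between 4.59 and 4.78 elsewhere. S100a9, the partner of S100a8, measured 3.62 there and between 3.35 and 3.51 elsewhere. Of the granulocyte and mast cell markers, 10 of 11 were higher in that embryo than in its littermate, with a median of 0.12, and of the lymphocyte markers 7 of 9, with a median of 0.06. Visceral endoderm markers were also furthest apart in litter 3, with a median difference of 5.00 against 3.14 and 3.21. Their part in the litter 3 values was not tested.

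Other genes of blood progenitors changed in both directions. Of 27 measured, 3 rose, 2 fell and 22 did not pass, with a median difference of 0.04, where 3.67% of all genes rose and 1.65% fell. Csf2rb, the common receptor chain for myeloid growth factors, fell, with a measured signal 3.52-fold lower in RFC1-/- embryos. It measured 6.83, 6.57 and 5.99 in RFC1+/+ embryos and 4.77, 4.63 and 4.54 in RFC1-/- embryos (limma adjusted p = 0.00373). The groups were well apart, with all RFC1-/- values within the range of the lymphocyte genes, while the dim second probe set of Csf2rb differed by -0.31 and did not pass. Myb, a factor of progenitor growth, was 2.17-fold lower (limma difference -1.12 ± 0.13 (SE) in log2 units, adjusted p = 0.00846). Another Myb probe set passed as well, at -1.01, with all its values within the range of the lymphocyte genes, while the dimmest differed by -0.13.

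The progenitor genes that rose are also made outside blood. Hhex, a homeobox factor of endoderm and of the common precursors of blood and endothelium, was 2.31-fold higher (limma difference 1.21 ± 0.17 (SE) in log2 units, adjusted p = 0.0125). Erg, an ETS factor of endothelium and progenitors, was 1.89-fold higher (limma adjusted p = 0.00737), with a dim second probe set that differed by 0.08. Angpt1, a ligand of the endothelial receptor Tek, rose by 0.59 on the log2 scale (limma adjusted p = 0.0262, 0.180 without litter 1 and 0.0800 without litter 2), and its other probe set differed by 0.09. The partners of Runx1, Gata2 and Lyl1 in blood did not pass: Cbfb differed by -0.01, Tal1 by 0.30, Lmo2 by 0.41 and Ldb1 by -0.23.

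The other genes of Kit, Csf1r and Cx3cr1 signalling, ligands of these receptors included, did not pass, 0 of 17 in limma, with 0 under 0.05 before adjustment. Kitl, described above, is not among these 17. The ligands of Csf1r differed little, with Csf1 at 6.47 in RFC1+/+ and 6.53 in RFC1-/- embryos (95% interval of the difference -0.21 to 0.35) and Il34 at 5.21 and 5.32 (-0.12 to 0.34). Cx3cl1, the ligand of Cx3cr1, differed by -0.11 (95% interval -0.35 to 0.14). All values of Il34 and Cx3cl1 lie within the range of the lymphocyte genes, so their intervals describe the measured signals. The median of the list was 0.08.

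**Figure D4:**
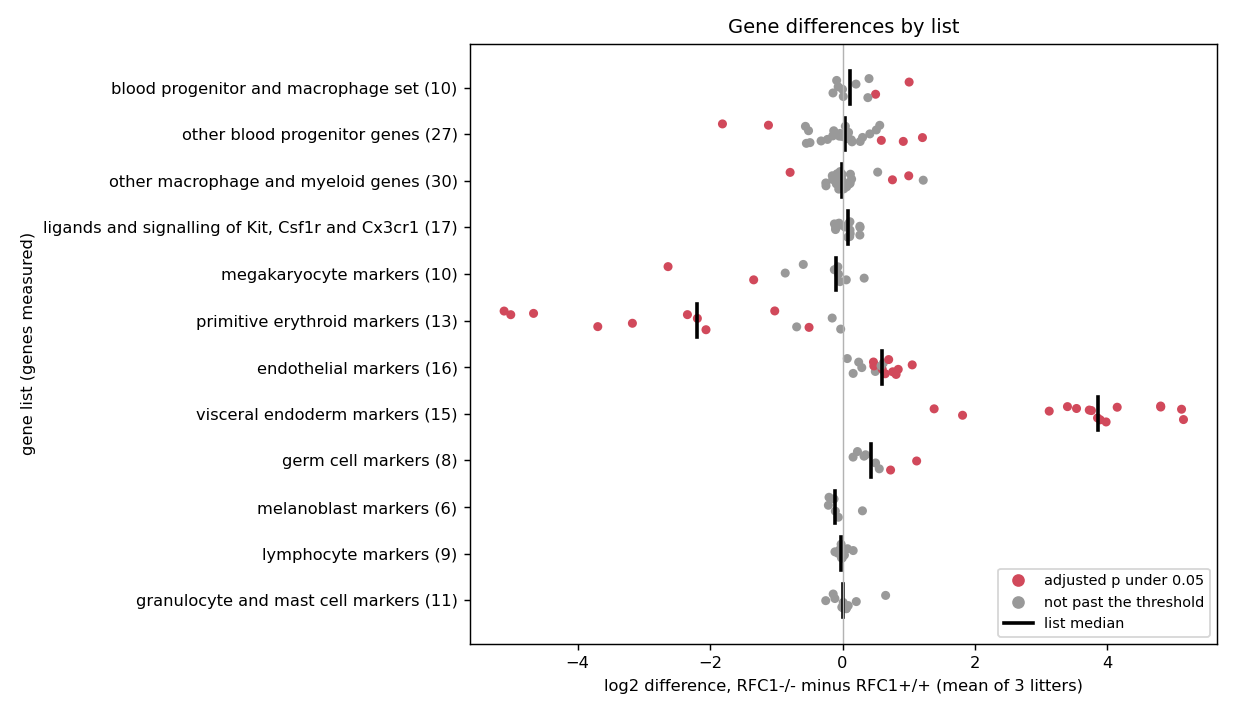
Mean log2 difference over the 3 litters, RFC1-/- minus RFC1+/+ (x axis), of each measured gene on its brightest probe set, by gene list with the number of genes measured (y axis). Red points passed an adjusted p of 0.05, grey points did not, and black bars are list medians, from -2.19 for primitive erythroid markers to 3.85 for visceral endoderm markers.

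Markers of other cell types that share these genes moved on the same arrays. Primitive erythroid cells, which derive from yolk sac mesoderm, had 10 of 13 measured markers lower and none higher, with a median of -2.19. Their summed signal was between 31769 and 45043 in RFC1+/+ embryos and between 3351 and 6647 in RFC1-/- embryos. Of 10 megakaryocyte markers, Pf4 and Clec1b fell, with differences of -2.64 and -1.34 (Pf4 limma adjusted p = 0.0283, 0.0514 without litter 2). The litter differences of Pf4 were -4.15, -2.56 and -1.19, and its RFC1-/- values lie within the range of the lymphocyte genes. Over all genes, 1.65% fell and 3.67% rose. Endothelial markers, a tissue in which Kit, Gata2, Lyl1, Erg and Hhex are also known, had 9 of 16 higher and none lower, with a median of 0.59 (2 of 16 passed without litter 1, 5 without litter 2), and their summed signal was between 3972 and 4491 in RFC1+/+ and between 5960 and 6888 in RFC1-/- embryos.

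Markers of other cells that carry Kit were also measured. Of 8 germ cell markers, Ifitm3 and Prdm1 rose, by 1.12 and 0.73, although both are made in further tissues, and none fell. Over all genes, 3.67% rose. The median of the germ cell markers was 0.42, and 7 of the 8 were higher in all 3 litters. Of all probe sets, 35.5% had the same sign in all 3 litters, in either direction. Dppa3, a more restricted germ cell marker, had a difference of 0.50 that did not pass. All values of Dppa3, Ddx4, Dazl and Prdm14 lie within the range of the lymphocyte genes. None of 6 melanoblast markers passed, with a median of -0.12. All 15 measured visceral endoderm markers rose, with a median of 3.85, and their summed signal was between 2438 and 6424 in RFC1+/+ and between 24370 and 66233 in RFC1-/- embryos. The part of any of these cell types in the differences of Kit, Kitl, Gata2 or Ikzf1 was not tested.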

How the data were processed

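Labelled cRNA of single whole E9.5 embryos was hybridized to Affymetrix arrays, and the table that the authors deposited holds log2 values of 45101 probe sets on 6 arrays. Per the methods, these log2 values came from RMA, with background correction of perfect match probes, quantile normalization and median polish, and software versions are not given there. Quantile normalization makes the arrays alike in distribution, so that differences are relative to the other genes. All probe sets were present, so the variation filter of the methods, 1.5-fold from the median in at least 1 array, had not been applied, and 0 columns of values were left unused. Arrays give no read depth, and their number limits the precision.

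Of the probe sets, 34958 carried 1 symbol in the platform annotation, 932 several and 9211 none. Differences were fitted with limma 3.58.1 in R 4.3.3 with the litter as a block, over all probe sets, over 18194 genes on their brightest probe set, and over 16764 differences between probe sets of a gene. The fit was tested on simulated data. The litters come from the labels and methods, and deviations from the group means correlated within litters 1, 2 and 3 at 0.10, -0.05 and -0.15. Every probe set of the 10 genes was named, then per list up to 5 called genes with the largest change, those called against the direction of most, and fixed macrophage markers and ligands. Genes and lists were chosen with earlier results of these data known. Listed genes that no probe set names alone were not analysed here. The alternatives were no block, the variation filter, dim probe sets left out, an intensity trend, the random-variance test of the methods with its prior from all probe sets, other normalizations, averaged probe sets and each litter left out. Python 3.11.15 with pandas 2.3.3 made the tables and matplotlib 3.10.9 the plots.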

Additional observations from a re-analysis of the deposited data

How the results depend on the processing

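Over the whole array, fewest probe sets and fewest genes passed without litter 1. Without litter 1, 2 or 3, between 129 and 1585 of all probe sets passed, against 1241, and between 355 and 1199 of all genes, against 968. Of the probe sets of the 10 genes, between 0 and 1 were then higher and between 0 and 1 lower, and between 0 and 1 of the 10 genes passed in the fit of genes, against 2. Over the same settings, between 4 and 8 of the other progenitor genes, against 5, and between 2 and 4 of the macrophage and myeloid genes, against 3, passed, and between 59 and 332 pairs of probe sets, against 142.

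The variation filter left 491 probe sets past the threshold and 0 of the 3 probe sets of these genes that it kept higher. In that fit these 3 probe sets shared the same SE, 0.389, whatever their own spread. The Kitl probe set joined that of Kit, for 2 higher, when dim probe sets were left out, with an intensity trend and after a second quantile normalization. Centring the arrays left 1 of the 10 genes past the threshold. Without the litter as a block (no replicate block), 8 progenitor genes passed, and 3 of the 10 genes with Gata2 added. The blocked fit is the main one, and the macrophage and myeloid genes went from 3 to 2 with Fcgr3 lost when the block was left out, and all probe sets from 1241 to 1388. With all probe sets of a gene averaged, 1 of the 17 ligand and signalling genes passed, and Ikzf1 turned from 0.01 to -0.69. When both probe sets had to reach a mean of at least 5, 8 pairs passed, that of Ikzf1 among them. The fall of the second Ikzf1 probe set passed under every alternative except without litter 1. Among results for single probe sets, single genes and marker lists, 734 comparisons with an alternative kept their side of the threshold, of which 33 turned sign in results that passed in neither setting. A call was lost in 44 and gained in 7, 4 list counts moved, and Ikzf1 turned sign with a call in 1 of the settings. Dim probe sets limit what can be said of Runx1, Ptprc and Cx3cr1. So do the levels of Spi1 and of the brighter Ikzf1 probe set, near the top of the lymphocyte range, for these.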
